A study of Mus musculus with 3 samples.

Results

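The matrix metalloproteinases (MMPs), the ADAM and ADAMTS proteases and the tissue inhibitors of metalloproteinases (TIMPs) were followed in sorted mouse yolk sac cells. Members were all probes for mouse transcripts whose gene name begins with Mmp, Timp, Adam or Adamts followed directly by a digit, which gave 108 probes of 78 genes among 55681 probes of 36095 named genes. Cells carrying both VE-cadherin, which joins endothelial cells, and CD45, a phosphatase of blood cells, were sorted by flow cytometry from Tie-2-Etv2 yolk sacs (2 arrays) and from control yolk sacs (1 array). In the Tie-2-Etv2 embryos an Etv2 transgene was switched on by a second transgene, in which the Tie-2 promoter drives Cre recombinase. Etv2 is an ETS factor needed for the first blood and endothelial cells, and the Tie-2 promoter is active in endothelium and in blood progenitors. The control genotype is given only as control, and its stage as E10.5. No stage is given for the Tie-2-Etv2 embryos. All embryos were of a mixed background (B6/CBA and others), and the labels do not state how many embryos were pooled per sample or whether the Tie-2-Etv2 pair comes from more than 1 litter, so that the spread between these 2 arrays may be technical.

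MMPs are zinc-dependent enzymes that cut collagens and other matrix proteins and are made as inactive precursors. ADAMs are membrane proteins, several of which release growth factors, cytokines and receptors from the cell surface, whereas ADAMTS enzymes are secreted and act on proteoglycans, procollagens and von Willebrand factor. TIMPs bind the active site of these enzymes and block them, and TIMP-2 together with MMP14 also takes part in the activation of pro-MMP2. In blood and vessel development, matrix cutting accompanies sprouting and cell release, and ADAM10 cleaves Notch receptors.

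Each sample was hybridised with Cy3 label to its own 1-colour Agilent array. Levels below are log2 signal relative to the 75th percentile of the probes detected on all 3 arrays, and a probe was called detected where the scanner software marked it well above background. In intensity units, that percentile was 1199 for Tie-2-Etv2 replicate 1, 2092 for replicate 2 and 2073 for the control. The numbers of detected probes were 24218, 27018 and 25464 in the same order. Cdh5 (VE-cadherin) and Ptprc (CD45) were detected on all 3 arrays, at differences from the control of 3.53 ± 0.88 and -0.46 ± 0.32 on the log2 scale (standard error). The probe for Etv2 differed by 3.82 ± 0.62 (adjusted p = 0.237 in limma).

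Most of the protease genes were dim. Of the 78 genes, 34 were detected on at least 1 array, 18 on all 3 and 44 on none. The detected share was 29.5% and 35.9% for the Tie-2-Etv2 arrays and 30.8% for the control, where over all genes of the arrays the shares were 50.6%, 55.4% and 52.9%. The families differed in this respect. Of 23 MMP genes 5 and 7 were detected on the Tie-2-Etv2 arrays and 4 on the control array, and of 32 ADAM genes 14 and 14, against 13. Of 19 ADAMTS genes 2 and 5 were detected on the Tie-2-Etv2 arrays, against 4 on the control array, and of the 4 TIMP genes 2 and 2, against 3. The signal of a single probe depends on its sequence, so a dim probe gives a bound on the transcript and not its absence.

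**Figure D1:**
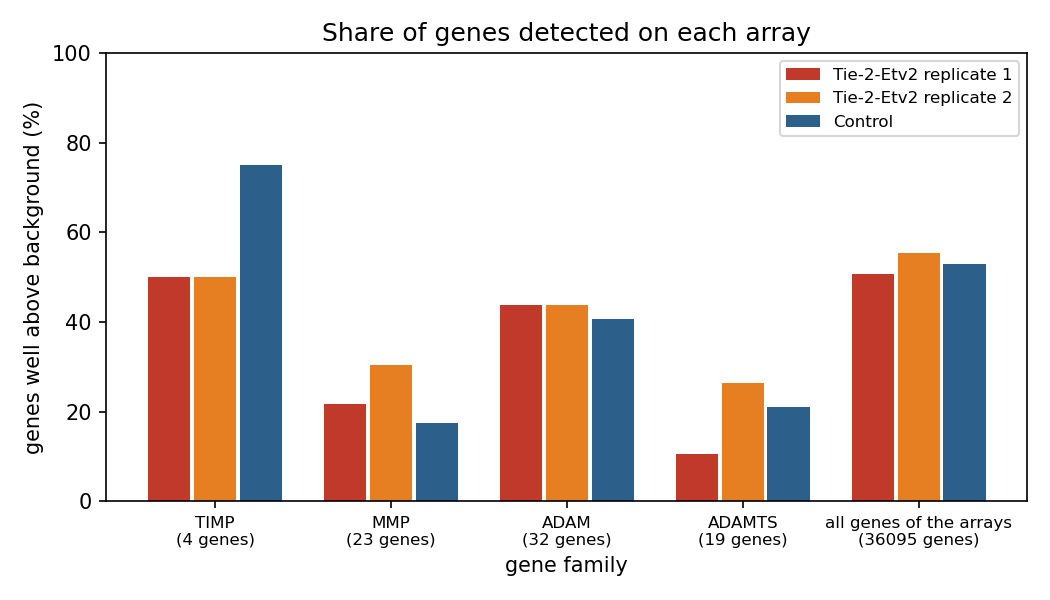
Percentage of genes in each family that were well above background, by array (bars, linear axis from 0 to 100%). The MMP, ADAM and ADAMTS bars lie below those of all 36095 genes on each of the 3 arrays, and the TIMP family is the one with a higher bar on the control array (75%) than on the Tie-2-Etv2 pair (50% each).

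The undetected MMPs included a whole stretch of chromosome 9. Probes for 10 MMP genes lay between positions 7282762 and 7697700 of that chromosome (build mm9, a span of 415 kb), and none of the 10 was detected on any array. They were Mmp1a, Mmp1b, Mmp8 and Mmp13, the interstitial collagenases, Mmp3 and Mmp10, the stromelysins, Mmp7 (matrilysin), Mmp12 (macrophage metalloelastase), Mmp20 (enamelysin) and Mmp27. On chromosome 8, by contrast, 4 of 5 ADAM genes between 25712756 and 26060310 were detected on at least 1 array, namely Adam3, Adam5, Adam9 and Adam32, but not Adam18. At 41767082 to 41912194 on the same chromosome Adam24, Adam25 and Adam39 were detected on no array. The 69 member probes without detection on any array had median differences from the control of 0.43 and -0.31 on the Tie-2-Etv2 pair, and as all of these lie below the detection limit they were not compared further.

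Genes were compared if a probe was detected in the control or in the full Tie-2-Etv2 pair, and 27 of the 78 met this. This filter takes a gene seen on the control array alone but asks for both Tie-2-Etv2 arrays otherwise. By measured values, those below the detection limit included, 8 of these 27 genes were at least 2-fold lower than the control on both Tie-2-Etv2 arrays (29.6%), where 6.64% of all 19580 tested genes were, and 3 were at least 2-fold higher (11.1%), where 3.92% of all genes were. The lower genes by this count were Timp1, Timp2, Adam3, Adam9, Adam19, Adam26a, Adamts4 and Adamts17, and the higher genes were Adam7, Adam12 and Mmp17. With undetected values set to the lowest detected level of their array, 6 were lower, where 5.18% of all genes were, and Adam26a and Adamts17 were not among them, since on these arrays a 2-fold difference is not shown for either. Among the 18 members detected on all 3 arrays, 3 were lower (16.7%, against 3.44% of all genes under that filter) and 2 higher (11.1%, against 2.91%). The median log2 difference was -0.36 over the 27 members and 0.07 over all tested genes, and it was 0.10 over the 18 members, against 0.095 over all genes detected on all 3 arrays. The sign of the members' median thus changed with the filter.

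In the test with limma across all probes, no member passed an adjusted p of 0.05, as no gene of the arrays did (0% of 19580). At an unadjusted p under 0.05 there were 9 of 27 members (33.3%), where 10.8% of all genes met this, with 7 lower (background 6.36%) and 2 higher (background 4.41%). Of the 9, Timp1, Adam7, Adam26a, Adamts4 and Adamts17 were below the detection limit throughout 1 group and entered through the other. In the fit restricted to probes detected on all 3 arrays, 5 of 18 members (27.8%) met this, where 10% of genes did, namely Timp2, Adam9, Adam12, Adam19 and Mmp17. The test had 1 residual degree of freedom, and 3.92 in total once limma had pooled variance over all probes. In simulated data of the same size, where 200 of 26214 probes were changed in each of 20 runs, it recovered 0% of 2-fold and of 4-fold, 0.8% of 16-fold and 32.5% of 64-fold differences. An exact permutation test of 2 arrays against 1 cannot give a p below 0.333. A missed threshold here does not show that a gene was the same in both groups.

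**Figure D2:**
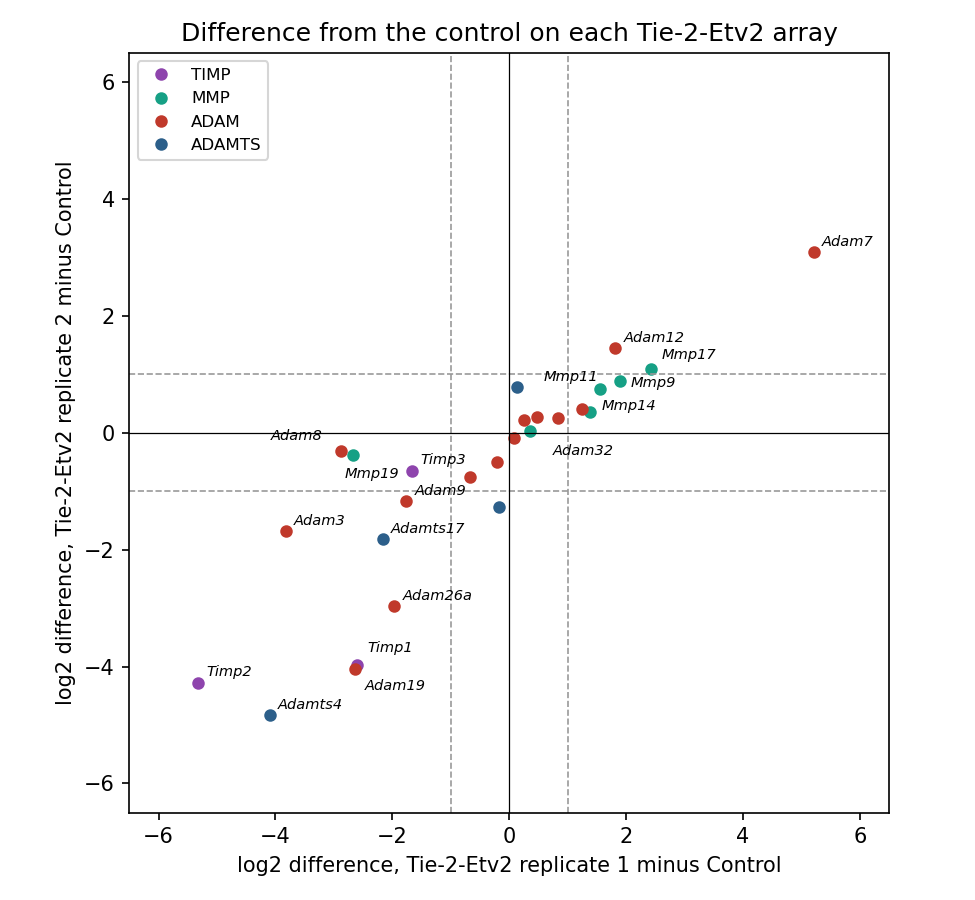
Log2 difference, Tie-2-Etv2 minus control, with replicate 1 on the x axis and replicate 2 on the y axis, for the 27 tested genes, coloured by family, with dashed lines at 2-fold and values below the detection limit included. Genes beyond 2-fold on both axes lie in the lower left (8 genes) and upper right corners (3 genes, Adam7 furthest out), and Adam8 and Mmp19 are far from 0 on replicate 1 alone.

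Among the inhibitors, Timp2, which encodes the TIMP that joins MMP14 in activating pro-MMP2, had the largest difference of the members detected on all 3 arrays. Its level was -5.07 and -4.01 on Tie-2-Etv2 replicates 1 and 2, against 0.26 on the control array. Both Tie-2-Etv2 arrays were far below the control, and the gap between them was small beside that distance. The mean of -4.54 ± 0.75 (SD, n = 2) corresponds to a level 27.9-fold lower than the control, a log2 difference of -4.80 ± 0.56 (SE) with an adjusted p of 0.204 in limma. A second Timp2 probe, in another part of the transcript, gave the same picture at levels of -6.71 and -6.60 in the Tie-2-Etv2 arrays, against -2.28 on the control array. It was not detected on Tie-2-Etv2 replicate 1, and its log2 difference was -4.375 ± 0.32 (adjusted p = 0.200). The first probe lies at chr11:118163146-118163205 (mm9, minus strand), starting at base 2791 of the transcript. The second starts at base 652, and its 60 bases match the genome over chr11:118171964-118178741, so it crosses an exon junction and reads spliced RNA. Its sequence is shown because it measures Timp2 elsewhere in the transcript than the first probe, and no bases are marked.
Timp2 junction probe: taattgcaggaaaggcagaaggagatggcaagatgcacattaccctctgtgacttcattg

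Timp1, on the X chromosome, encodes an inhibitor with growth-promoting activity on erythroid cells. Its level was -8.01 and -9.39 on the Tie-2-Etv2 arrays, neither of them above background, against -5.42 on the control array, where it was detected at 48.6 intensity units. With the Tie-2-Etv2 values at the lowest detected level of their arrays, Timp1 was at least 3.41-fold lower (bounds of 2.66 and 4.37 on the single arrays), while the fit on the measured values had an adjusted p of 0.276 in limma and the fit with such values at that level 0.288. Such bounds, here and below, set the mean of the brighter group against, for each dim array, the higher of the probe's own value and the array's lowest detected level, and the adjusted p beside them is that of the measured values. They hold for the main processing only. Under another background correction, given below, the log2 difference of Timp1 was -0.39. Timp3, whose product is held in the extracellular matrix and also blocks ADAM17, was detected on all 3 arrays at -4.19 and -3.17 in Tie-2-Etv2, against -2.52 in the control. It was lower on both arrays but past 2-fold on replicate 1 alone, and its log2 difference of -1.16 ± 0.55 had an adjusted p of 0.608. Timp4 was detected on no array. Timp2 and Timp3 thus lay below the control on both Tie-2-Etv2 arrays, while Timp1 was compared only because the control array detected it. Of the 17228 genes detected on all 3 arrays, 6838 had a mean difference below 0.

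The promoters of these inhibitors are shown because the transgene encodes an ETS factor. Each window runs from 250 bases before to 50 after the RefSeq start (GRCm38.p6), at chrX:20869916-20870215 (plus strand) for Timp1, chr11:118355362-118355661 (minus strand) for Timp2 and chr10:86300162-86300461 (plus strand) for Timp3. Capitals mark AGGAAG, a sequence with the ETS core. Also searched, all on both strands, were the AP-1 sequence TGANTCA, the RUNX sequence TGTGGT and a further ETS sequence, CCGGAA, which cannot share a core with the one marked.
Timp1 promoter: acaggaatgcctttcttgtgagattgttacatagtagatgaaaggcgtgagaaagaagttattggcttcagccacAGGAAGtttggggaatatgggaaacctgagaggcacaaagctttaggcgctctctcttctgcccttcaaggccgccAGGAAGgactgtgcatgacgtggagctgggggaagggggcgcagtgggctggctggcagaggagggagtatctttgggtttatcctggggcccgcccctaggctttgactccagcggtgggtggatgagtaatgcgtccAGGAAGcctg
Timp2 promoter: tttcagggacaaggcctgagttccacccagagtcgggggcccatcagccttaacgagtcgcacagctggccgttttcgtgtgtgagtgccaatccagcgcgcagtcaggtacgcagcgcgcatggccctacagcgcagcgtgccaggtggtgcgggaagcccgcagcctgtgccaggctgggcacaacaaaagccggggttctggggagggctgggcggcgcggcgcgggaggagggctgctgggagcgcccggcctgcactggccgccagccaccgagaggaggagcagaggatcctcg
Timp3 promoter: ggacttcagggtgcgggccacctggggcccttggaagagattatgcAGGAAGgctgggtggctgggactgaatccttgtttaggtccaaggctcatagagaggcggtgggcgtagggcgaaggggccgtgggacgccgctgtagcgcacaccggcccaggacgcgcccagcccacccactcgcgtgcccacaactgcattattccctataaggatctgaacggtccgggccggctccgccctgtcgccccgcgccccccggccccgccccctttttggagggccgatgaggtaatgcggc

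Timp1 held AGGAAG at -175, -99 and 41 relative to its start, Timp3 held it at -204, and Timp2 held none of the 4 sequences. The Timp2 and Timp3 windows were rich in G and C (68.7% and 67.0%, with 25 and 24 CG pairs), and the Timp1 window less so (55.0%, 8 CG pairs). AGGAAG occurred in 41.5% of the 53 promoters that the RefSeq table holds for 48 member genes and in 35.4% of all its 32851 promoters. For CCGGAA the shares were 5.66% of the member promoters and 14.9% of all, for TGANTCA 22.6% of the member promoters and 7.81% of all, and for TGTGGT 22.6% and 16.8%. These matches describe the letters in the windows and nothing about binding.

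**Figure D3:**
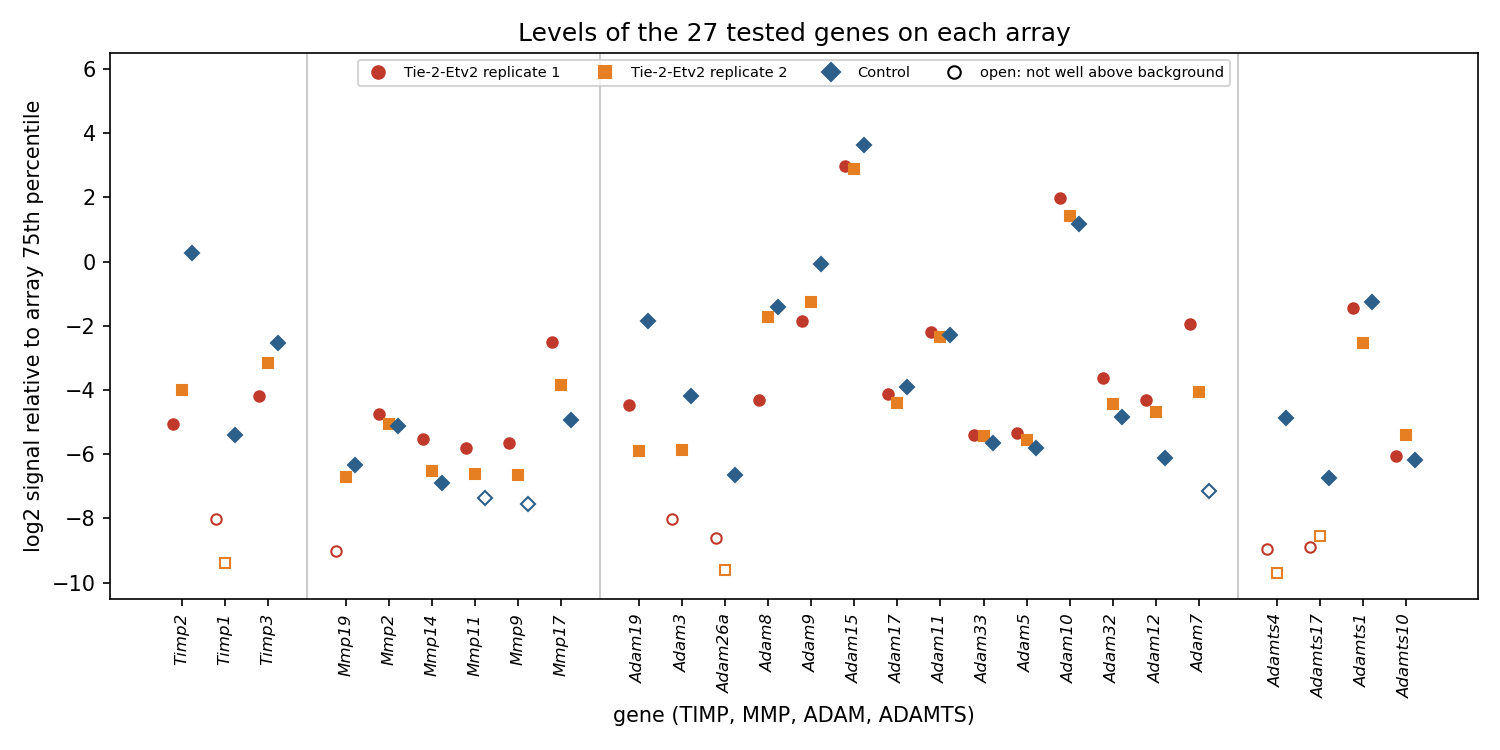
Level of each of the 27 tested genes (log2 signal relative to the 75th percentile of the array) on Tie-2-Etv2 replicate 1, Tie-2-Etv2 replicate 2 and the control array, grouped as TIMP, MMP, ADAM and ADAMTS, with open symbols where the probe was not well above background. The control value of Timp2 (0.26) stands above both Tie-2-Etv2 values (-5.07 and -4.01), whereas Adam7 shows the opposite order with an open symbol for the control.

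Of the metalloproteinases proper, 6 MMP genes could be compared, and none of these was 2-fold lower on both arrays. Mmp17, which encodes an MMP held at the membrane by a glycolipid anchor, was the MMP that was 2-fold higher on both. Its level was -2.50 and -3.84 in Tie-2-Etv2, against -4.925 in the control, so that both Tie-2-Etv2 arrays lay above the control, replicate 1 by far more than replicate 2. The mean was 3.38-fold higher, with a log2 difference of 1.755 ± 0.665 (adjusted p = 0.498, limma). Mmp14, the transmembrane MMP that activates pro-MMP2, had levels of -5.52 and -6.535 in Tie-2-Etv2, against -6.89 in the control. It was higher on both arrays but past 2-fold on replicate 1 alone. Mmp2, a gelatinase of stromal cells, was at -4.75 and -5.07 in Tie-2-Etv2, against -5.11 in the control, a log2 difference of 0.20 ± 0.35 that is smaller than its standard error.

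Mmp9, the other gelatinase and a product of neutrophils and macrophages, was printed at 10 spots per array, which gives its value a spread within each array. The spots read 21.2 to 27.6 intensity units on Tie-2-Etv2 replicate 1 (median 22.6, 9 spots kept, all 9 well above background) and 13.7 to 28.7 on replicate 2 (median 21.7, 10 of 10 well above background). On the control array they read 7.27 to 15.9 (median 11.4), with 1 of 10 spots well above background. Before scaling, the spots of replicate 1 did not overlap those of the control, and those of replicate 2 overlapped them at the low end. Relative to the percentile of each array the levels were -5.66 and -6.66 in Tie-2-Etv2, against -7.55 in the control, so Mmp9 was at least 2.1-fold higher (bounds of 2.98 and 1.48 on the single arrays), with an adjusted p of 0.511. Spots of 1 array share 1 sample and measure technical spread only.

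Mmp11, a stromal MMP known as stromelysin-3, was detected on both Tie-2-Etv2 arrays at -5.81 and -6.62 and not on the control array at -7.36, which makes it at least 2.02-fold higher (bounds of 2.67 and 1.53 on the single arrays; adjusted p = 0.542). Mmp19 was detected at -6.72 on Tie-2-Etv2 replicate 2 and not on replicate 1 (-9.01), against -6.35 on the control array. Replicate 2 was close to the control, and on replicate 1 the gene was at least 1.4-fold lower. Mmp24 was detected at -7.50 on Tie-2-Etv2 replicate 2 alone and was not tested. After scaling, Mmp11, Mmp9, Mmp14 and Mmp17 were all further above the control on replicate 1 than on replicate 2. Before scaling, replicates 1 and 2 read 21.3 and 21.3 intensity units for Mmp11, 26.1 and 22.6 for Mmp14 and 212 and 146 for Mmp17. The Mmp9 spot medians were 22.6 and 21.7, and the percentile used for scaling 1199 and 2092. Taken 1 array at a time, 9.06% of all tested genes were 2-fold higher on replicate 1 and 4.57% on replicate 2.

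The ADAMs were the best covered of the 3 protease families. Of 9 ADAMs of the type that sheds surface proteins, 8 were detected on all 3 arrays and 1, Adam28, on none. Of 19 ADAMs known mainly from testis, 6 were detected on at least 1 array. Adam15, Adam10, Adam9, Adamts1 and Timp2 had the highest mean levels among tested members, as the mean of the Tie-2-Etv2 mean and the control value, an order of probes and not of transcripts. Adam10, which encodes the main sheddase of Notch receptors, was at 1.997 and 1.41 in Tie-2-Etv2, against 1.16 in the control (log2 difference 0.55 ± 0.41, adjusted p = 0.799). Adam15, an ADAM of endothelium and other adherent cells, was at 2.97 and 2.895 in Tie-2-Etv2, against 3.645 in the control (difference -0.71 ± 0.32, adjusted p = 0.582). Both Tie-2-Etv2 arrays lay above the control for Adam10 and below it for Adam15, by less than 2-fold in each case.

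Adam17, the sheddase of tumour necrosis factor, had 2 overlapping probes, with levels of -4.13 and -4.41 in Tie-2-Etv2 against -3.91 in the control for the brighter one. Their log2 differences were -0.36 ± 0.34 and -0.13 ± 0.47, each under 2-fold on both arrays. Adam9, a widely expressed sheddase, was at -1.85 and -1.25 in Tie-2-Etv2, against -0.086 in the control. Both arrays lay below the control, by a mean of 2.76-fold (log2 difference -1.46 ± 0.41, adjusted p = 0.368). Adam8, a sheddase of myeloid cells, split the replicates. It was at -4.30 on Tie-2-Etv2 replicate 1 and at -1.74 on replicate 2, against -1.43 in the control, so that replicate 2 stood near the control and replicate 1 far below both.

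Adam19, an ADAM of the neuregulin-processing group, was the most distant ADAM detected on all 3 arrays. Its level was -4.48 and -5.89 in Tie-2-Etv2, against -1.84 in the control. In intensity units these were 53.6 and 35.4 in Tie-2-Etv2, against 579 in the control. The mean was 10.2-fold lower, a log2 difference of -3.345 ± 0.69 (adjusted p = 0.276). The single arrays were 6.24-fold and 16.5-fold below the control.

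Adam12, known from muscle, placenta and bone, was at -4.31 and -4.68 in Tie-2-Etv2, against -6.13 in the control, and both arrays lay above it by more than their distance from each other. It was 3.1-fold higher (log2 difference 1.63 ± 0.36, adjusted p = 0.290). Of its 3 probes, this one starts at base 2872 and matches the genome over chr7:141079625-141081861 (mm9, minus strand), again across a junction, while the probes further along the transcript, at bases 3259 and 6670, were detected on no array. The Adam12 value therefore rests on 1 probe, whose sequence is given for that reason, with no bases marked.
Adam12 junction probe: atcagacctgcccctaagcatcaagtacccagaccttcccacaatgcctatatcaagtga

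Adam7, which encodes an ADAM of the epididymis without a working protease site, was detected on both Tie-2-Etv2 arrays at -1.94 and -4.06 and not on the control array (-7.155). The bound by the rule above was 17.8-fold higher, from 37.1 and 8.54 on the single arrays, with an adjusted p of 0.312 in limma. It equals the measured difference, as the control value lay above the lowest detected level of its array (-7.23). Under the other background correction given below, the log2 difference of Adam7 was 2.13. Replicate 1 was well above replicate 2, and both were far above the control. Its neighbour on chromosome 14, Adam28, was detected on no array; the 2 probes lie within 113 kb (mm9).

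The other lower ADAMs were testis genes with dim signals. Adam3, a sperm surface gene, was at -8.01 and -5.87 in Tie-2-Etv2, against -4.18 in the control. It was not detected on replicate 1, where it was at least 6.26-fold lower, and on replicate 2 it was 3.21-fold lower (adjusted p = 0.479). A second, dimmer Adam3 probe was detected on the control array alone, at -8.97 and -8.38 in Tie-2-Etv2 against -7.05. Its log2 difference was -1.63 ± 0.41, and its bound at least 1.1-fold lower. Adam26a was detected on the control array alone, at -8.62 and -9.61 in Tie-2-Etv2 against -6.65 in the control, and its bound was at least 1.45-fold lower (adjusted p = 0.289). Adam32 (log2 difference 0.825 ± 0.48), Adam5 (0.37 ± 0.33), Adam33 (0.24 ± 0.32) and Adam11 (-0.003 ± 0.33) were detected on all 3 arrays and within 2-fold of the control in the mean. Adam22 was detected at -4.635 on Tie-2-Etv2 replicate 1 only, as was Adam6b at -6.65 and, with a second probe, Adam33 at -4.59, whereas Adam26b was detected at -6.35 on replicate 2 only.

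Of the 4 ADAMTS genes compared, Adamts1, a proteoglycanase that also restrains vessel growth, was at -1.43 and -2.52 in Tie-2-Etv2, against -1.25 in the control (log2 difference -0.725 ± 0.57, adjusted p = 0.820). It was close to the control on replicate 1 and more than 2-fold lower on replicate 2. Adamts10, linked to fibrillin, was at -6.05 and -5.41, against -6.19 (difference 0.46 ± 0.425). Adamts17 was at -8.89 and -8.55 in Tie-2-Etv2, neither detected, against -6.73 in the control, and was at least 1.37-fold lower (adjusted p = 0.249). On Tie-2-Etv2 replicate 2 alone Adamts3, a procollagen and VEGF-C processing enzyme, was detected at -6.90, Adamts5, an aggrecan-cutting enzyme, at -6.46 and Adamts8 at -7.15.

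Adamts4, another aggrecanase, was measured with a pair of probes that disagreed in size. The brighter probe, at chr1:173189952-173190011 (mm9), was at -8.96 and -9.69 in Tie-2-Etv2, against -4.86 in the control, where it was detected. This gave a bound of at least 5.02-fold lower (adjusted p = 0.200). The other probe, at chr1:173190709-173190768, was at -7.01 and -8.13 in Tie-2-Etv2, against -6.77 in the control, a log2 difference of -0.805 ± 0.585 and a bound of at least 1.34-fold. The spot of the brighter probe lay in a patch of the slide where 8 of 23 neighbouring spots within 2 rows and columns were detected on the control array alone, whereas 1.54% of all spots were. Of the other 7 lower genes, Adam26a had 1 such neighbour of 23 and the rest 0. With the other Adamts4 probe in its place, the number of members 2-fold lower was 7 of 27, where 6.63% of all tested genes were lower.

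Genes outside the families that act on or with these enzymes were also compared, from lists chosen with earlier results of these data known. Of 13 tested activators and inhibitors 1 was 2-fold higher on both arrays and 5 lower, of 13 ADAM partners 1 and 2, of 16 shed ligands and receptors 2 and 5, and of 6 metalloproteinase relatives 1 and 0, by measured values and beside 3.92% of all genes higher and 6.64% lower. None passed the test. Their median log2 differences were -0.21, 0.16, -0.58 and 1.17 in that order, beside 0.07 over all tested genes. Plau, the urokinase that converts plasminogen to plasmin, was 7.59-fold lower (log2 difference -2.92 ± 0.33, adjusted p = 0.200). Pcolce, which enhances procollagen cleavage, was 4.6-fold lower (-2.20 ± 0.32). Also lower in that list were Plg, which encodes plasminogen and was not detected on Tie-2-Etv2 replicate 1, and Serpinf2, which encodes the plasmin inhibitor. Serpinb2, a serine protease inhibitor, was 3.67-fold higher (1.87 ± 0.51). Reck, a membrane-bound inhibitor of MMPs named after its value was seen, was at 0.72 ± 0.45.

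Among ADAM partners, Tspan33 and Tspan15, tetraspanins that guide ADAM10, went apart. Tspan33 had a log2 difference of -2.09 ± 0.37, whereas Tspan15 was not detected on the control array and was at least 2.33-fold higher (adjusted p = 0.536). Pacsin3, which binds ADAM tails, was at -1.195 ± 0.33, and Sh3pxd2a, which encodes an invadopodium scaffold, at -0.53 ± 0.32. Of the shed proteins, Notch4, an endothelial Notch receptor, was at 3.59 ± 0.81, App at -2.12 ± 0.32, Csf1r, the macrophage growth factor receptor, at -2.30 ± 0.69, and Cxcl16, a transmembrane chemokine, at -2.51 ± 0.88. Cxcl16 was not detected on Tie-2-Etv2 replicate 1. Hbegf was the other higher gene of that list, and Kitl and Epcam the other lower ones by measured values. Neither was detected on a Tie-2-Etv2 array, and their bounds were at least 1.34-fold and 1.31-fold lower. Of the relatives, Adamtsl4 was not detected on the control array and was at least 4.83-fold higher (adjusted p = 0.252), Bmp1, the procollagen C-proteinase, was at 1.60 ± 0.65, Tll1, a protease close to it, at 0.93 ± 0.34 and Mmel1 at -1.13 ± 0.53. Adjusted p in limma was 0.200 or more for all of these.

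Markers of the cell types in the yolk sac differed between the arrays along with the protease genes. The counts below are of markers 2-fold apart on both arrays by measured values, beside 6.64% of all tested genes lower and 3.92% higher. All 14 tested of 15 macrophage markers were at least 2-fold lower on both Tie-2-Etv2 arrays, with a summed level (linear scale, relative to the 75th percentile) of 5.10 and 17.6 in Tie-2-Etv2, against 76.9 in the control. Of 10 tested mesenchyme markers 6 were lower (summed level 0.244 and 0.174, against 1.54), with Pdgfra and Prrx1 not detected on any array, and of 11 visceral endoderm markers 9 (6.78 and 17.8, against 39.2), with Alb not detected. Of 8 erythroid markers 6 were lower (8.72 and 13.5, against 44.1). Among the lower markers, Timd4, Lum and Dcn were detected on neither Tie-2-Etv2 array, and Mertk and Foxa2 were not detected on replicate 1. Of 15 endothelial markers 11 were higher (52.5 and 25.8, against 10.8), and of 11 granulocyte and mast cell markers 6 (65.7 and 66.0, against 28.6), with Mcpt8 not detected. Flt4, Sox17, Sox18 and Ltf among these were not detected on the control array. A sum mainly follows its brightest probes, such as Egfl7 (log2 level 5.39 and 4.42, against 3.055) for endothelium and Mpo (5.225 and 5.46, against 4.16) for granulocytes. For visceral endoderm on replicate 1 the brightest was Trf (2.315). The sums of the macrophage, visceral endoderm and erythroid markers were lower on replicate 1 than on replicate 2, and that of the mesenchyme markers lower on replicate 2. Of the members detected on all 3 arrays with a mean difference below -1, Timp2, Timp3, Adam8 and Adam9 were lower on replicate 1 and Adam19 on replicate 2. With 2 arrays only 2 orders are possible, so a shared order links no gene to a cell type. The part of these cell types in the protease and inhibitor values was not tested, and in RNA from sorted pools fewer cells of a type and less RNA per cell cannot be told apart.

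**Figure D4:**
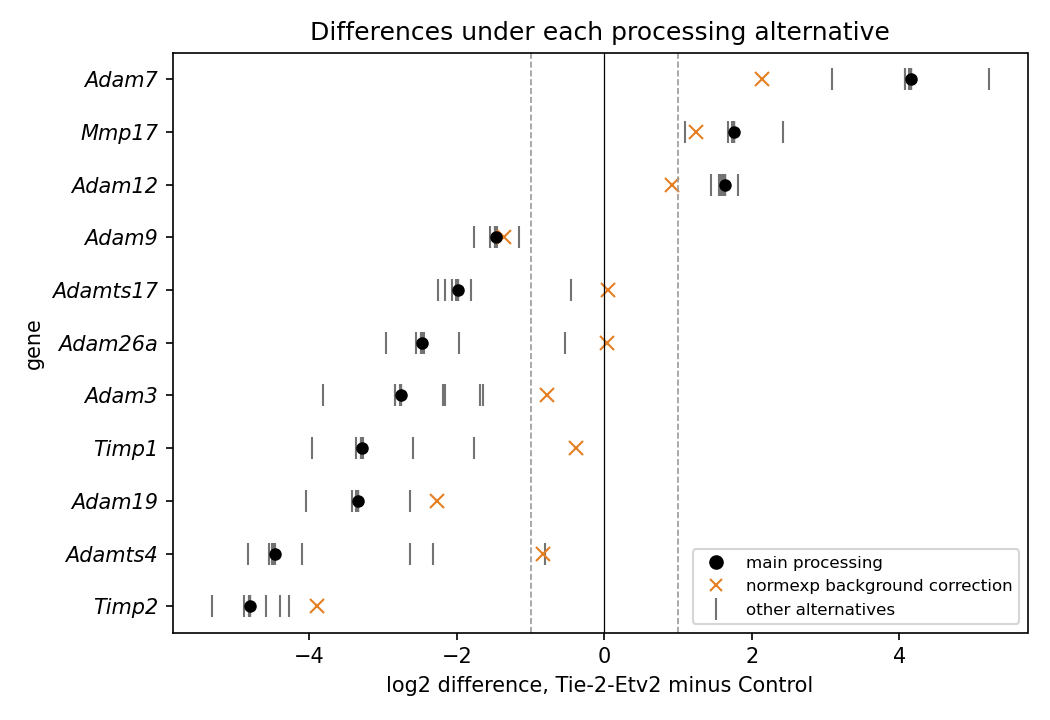
Log2 difference, Tie-2-Etv2 minus control, of the 11 genes at least 2-fold apart on both arrays by measured values, for the main processing (black points), normexp background correction (crosses) and the other alternatives (ticks, which include each Tie-2-Etv2 array alone). Timp2, Adam19 and Adam9 stay beyond the dashed 2-fold line on the lower side under all alternatives shown and Adam7 and Mmp17 on the higher side. With normexp, Adam12 (0.92), Timp1 (-0.39), Adam3 (-0.78) and Adamts4 (-0.83) fall short of it, and Adam26a and Adamts17 reach 0.04 and 0.045.

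The size of several differences depended on how dim spots were handled. With normexp, a background correction that models signal and background together, an offset of 50 intensity units was added to every value. Such an offset by itself shrinks log2 differences between dim values, and its part in these results was not tested. In this setting Timp2 (-3.89, adjusted p = 1.54e-14), Adam19 (-2.27, adjusted p = 7.10e-05) and Adam7 (2.13, adjusted p = 0.000254) passed limma's test. Timp1 was at -0.39, Adam3 at -0.78 and Adamts4 at -0.83. Without a filter on dim probes, Timp1, Timp2, Adam7, Adam19 and Adamts4 passed. In the normexp fit, limma used 1 common variance for all probes, with 26200 total degrees of freedom. The main fit had 3.92 and the fit without the filter 21.1. The lower p-values thus came with a different variance model on the same 3 arrays. Across the alternatives that were run, Timp2 differed by -5.33 to -3.89 on the log2 scale. The same range was -4.05 to -2.27 for Adam19, -1.76 to -1.16 for Adam9, 2.13 to 5.21 for Adam7 and 1.09 to 2.42 for Mmp17. That of Adam12 was 0.92 to 1.815, and that of Timp3 -1.67 to -0.65.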

How the data were processed

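RNA of 3 samples was measured on 1-colour arrays of design 028005, 1 array per sample. Spot intensity values were read, per the file headers and the submitters' notes, with Agilent Feature Extraction (10.7, or 10.7.3.1 by the headers), with background subtraction, a surrogate for very dim values and no scaling between arrays. A log2 table deposited by the authors states neither scale nor centring. Set against the scanner values, it differed by a constant for each Tie-2-Etv2 array (0.756 and -0.0161; 100% of probes within 0.01). Each row was centred on its median, and the column medians were 0.136, 0 and 0 for Tie-2-Etv2 replicates 1 and 2 and the control. It served as an alternative.

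Of 59305 spots for mouse transcripts per array, the 168 to 174 that the software marked as outliers were dropped, and log2 signals were averaged per probe. A probe counted as detected where over 50% of its spots were well above background. Fewer than 50% of probes were detected per array, so the 75th percentile used for scaling came from the 22764 probes seen on all 3. Each gene took the tested probe whose group means averaged highest. The test was two-sided, with limma 3.58.1 (lmFit, eBayes) in R 4.3.3 and data.table version 1.17.8, and p-values were adjusted by Benjamini-Hochberg over 26214 probes. It takes the single control to vary as the Tie-2-Etv2 pair did. The fit was tested on simulated data.

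Probe coordinates are on mm9, per the file headers. All member probes were matched to RefSeq names (GRCm38.p6), 103 by accession and 5 by symbol, with 0 names changed, and promoters came from RefSeq (same build). Probe sequences are those in the deposited files. The members, gene lists, tests and the rule for named genes were chosen with earlier results of these data known. That rule gave array values for members 2-fold apart on both arrays, all Timp genes and the 5 brightest probes, and named every detected member. The array values of other members were added after they were seen, and 1 gene of the related lists is not reported here. Alternatives changed the background correction (normexp, offset 50), the filter, the scaling, the source of the values, the treatment of dim values and the probe of a gene, or left out 1 Tie-2-Etv2 array.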

Additional observations from a re-analysis of the deposited data

How the results depend on the processing

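Spots marked as outliers kept and the other Adamts4 probe were chosen after seeing the data, and the other alternatives were planned. No paired analysis was possible because the groups share fewer than 2 replicate numbers. With normexp (offset 50), 3 of 27 members were 2-fold lower on both arrays (against 8) and 1 higher (against 3). Of all 19580 tested genes, 2.51% were lower and 1.59% higher. In that setting 6 genes of the related lists were lower (against 12). The members' median log2 difference turned to 0.04, Adam26a to 0.04 and Adamts17 to 0.045, and 614 genes, 3 of them members, passed the test. With no filter on dim probes, 7 of 78 members were higher and 12 lower, where 3.65% and 4.32% of 36088 genes were. Among them Adam21, Adam25 and Mmp23 (higher) and Adam4, Adamts9, Mmp8 and Mmp13 (lower) were detected on no array. The median was 0.056, and 440 of these genes, 5 of them members, passed. With probes detected on all 3 arrays, 3 of 18 members were lower, where 3.44% of all genes were, and the members' median was 0.10. With the mean of all tested probes of a gene, the median was -0.25. With either Tie-2-Etv2 array left out, members lower were 9 to 11 of 27, where 8.35% to 11.3% of all tested genes were. Members higher were 3 to 7, where 4.57% to 9.06% of all tested genes were, and the members' median was -0.31 to -0.18. Without replicate 2, 7 were higher, Adam32, Mmp9, Mmp11 and Mmp14 being added, where 9.06% of all tested genes were higher. The causes were not tested. Under the 7 alternatives that changed the scaling, the source of the values or the outlier spots, or that set dim values to the lowest detected level, members higher stayed at 3, and members lower were 6 to 8. Of all genes, 3.19% to 3.92% were higher and 5.18% to 7.37% lower under these 7. Signal over background limited 7 members to bounds, and the number of arrays limits all precision.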
